A study of Mus musculus with 22 samples.

Results

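DNA methylation was examined at 8 genes that carry or relay hormone signals in the mammary epithelium: the receptors Esr1, Pgr and Prlr, the luminal transcription factors Foxa1, Gata3 and Tfap2c, and the hormone-responsive genes Greb1 and Tnfsf11. A CpG position belonged to a gene if it lay in the RefSeq gene body or within 2 kb of any RefSeq transcription start site (TSS), model transcripts included, on mm10. Of the 1140639 CpG positions covered in all 22 samples, 830 met this rule, from 4 at Prlr to 224 at Gata3, and the 8 genes were taken from 26180 annotated genes. Another 318 positions of these loci lacked coverage in at least 1 sample and are given only among the closing observations.

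The samples were snap frozen: per the methods, bulk mammary tumors from MMTV-PyMT females and normal mammary glands from FVB females of the same age. The PyMT females were heterozygous for the polyoma middle T antigen under the mouse mammary tumor virus promoter, active in mammary epithelium. Their fathers were PyMT males on the FVB/N background and their mothers FVB, so both groups share that background. The FVB females, without the transgene, served as controls. Below, strain means only PyMT or FVB group. PyMT tissue was taken at hyperplasia (week 6, 2 samples), adenoma/mammary intraepithelial neoplasia (adenoma/MIN, week 8, 3 samples), early carcinoma (week 10, 3 samples) and late carcinoma (week 12, 2 samples), and 3 FVB glands were taken at each of these weeks. The methods state that 2 outlier samples were removed. Enhanced reduced representation bisulfite sequencing (ERRBS) reads methylation as the percent of reads in which a cytosine stayed unconverted, in CpG-rich fragments. Mean coverage was 60.2 to 79.2 reads per position in the samples and 77.2 reads over the 830 positions. Since the tissue was not sorted, a change of methylation within a cell type and a change in the mix of cell types cannot be told apart.

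Estrogen receptor alpha (Esr1) and the progesterone receptor (Pgr) are nuclear receptors that mark the hormone-sensing luminal cells of the mammary gland. Foxa1 is a pioneer factor that opens chromatin for Esr1, and Gata3 and Tfap2c maintain luminal identity. The prolactin receptor (Prlr) signals through Jak2 and Stat5 to drive alveolar growth. Greb1 is an estrogen target and a cofactor of Esr1, and Tnfsf11 (RANKL) is the paracrine factor through which progesterone stimulates neighboring cells. Methylation is commonly low at active CpG islands and enhancers and high in the bodies of genes.

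Positions were first joined into clusters of at least 3 positions with gaps of at most 100 bp, which gave 60 clusters with 779 positions at the 8 genes. The sequences below are the clusters with the largest called difference at each of the 4 genes with the largest differences, with 30 bases of flank on each side. Each was a loss, and other clusters of Gata3 and Tfap2c, not printed, lost more than those of Prlr and Esr1. The sequences were read from the RefSeq GRCm38 (mm10) genome, 5′ to 3′ on the strand of the gene. Capitals mark each measured cytosine, or the G opposite it where the cytosine of the other strand was measured.
Gata3, chr2:9863042-9863165, minus strand, border of exon 5 and intron 5: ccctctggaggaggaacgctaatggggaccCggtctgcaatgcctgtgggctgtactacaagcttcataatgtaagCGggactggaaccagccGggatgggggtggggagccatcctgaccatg
Tfap2c, chr2:172554227-172554329, plus strand, intron 5: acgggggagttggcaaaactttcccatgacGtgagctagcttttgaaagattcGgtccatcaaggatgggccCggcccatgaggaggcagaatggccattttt
Prlr, chr15:10178720-10178827, plus strand, intron 1: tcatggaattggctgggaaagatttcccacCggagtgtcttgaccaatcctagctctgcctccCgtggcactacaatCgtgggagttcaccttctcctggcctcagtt
Esr1, chr10:4621350-4621496, plus strand, intron 1: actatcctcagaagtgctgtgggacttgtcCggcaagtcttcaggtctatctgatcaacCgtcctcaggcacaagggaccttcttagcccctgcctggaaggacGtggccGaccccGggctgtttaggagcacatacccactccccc

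Each measured cytosine in these sequences had a lower median in PyMT than in FVB, which is no separate result because the clusters were picked by their differences. The 4 cytosines printed for Gata3 had FVB medians of 63.4% to 72.7% and PyMT medians of 14.6% to 25%. The 3 for Tfap2c had FVB medians of 61.2% to 74.6% and PyMT medians of 14.9% to 23.9%. The 3 for Prlr had FVB medians of 33.2% to 45.6% and PyMT medians of 9.45% to 11.2%, and the 5 for Esr1 had FVB medians of 26.8% to 45.1% and PyMT medians of 5.96% to 9.22%. Exon and intron numbers here and below follow the longest curated transcript of each gene.

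The first question was how PyMT tissue differed from FVB tissue across the 4 weeks. Methylation was lower in PyMT at 33 of the 60 clusters and higher at 10, and 17 clusters did not pass the test (limma on cluster means with the weekly differences averaged, Benjamini-Hochberg adjusted p over 84563 clusters under 0.05). Among all clusters, 31.6% were lower and 16.6% higher. The median difference was -1.18 points over the 60 clusters and -0.15 points over all clusters, and the range at the 8 genes ran from -48.2 points at Gata3 to 41.8 points at Tfap2c. PyMT and FVB samples did not overlap at 13 of the lower and 2 of the higher clusters, where 9.25% of all clusters were lower and 3.49% higher without overlap. Of the 23 clusters with an FVB mean of 20% or more, 18 were lower and 1 was higher, where 43.2% and 15.9% of all clusters at this level were. Of the 27 with an FVB mean under 5%, 8 were lower and 6 higher, where 4.61% and 16.2% of all such clusters were.

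**Figure D1:**
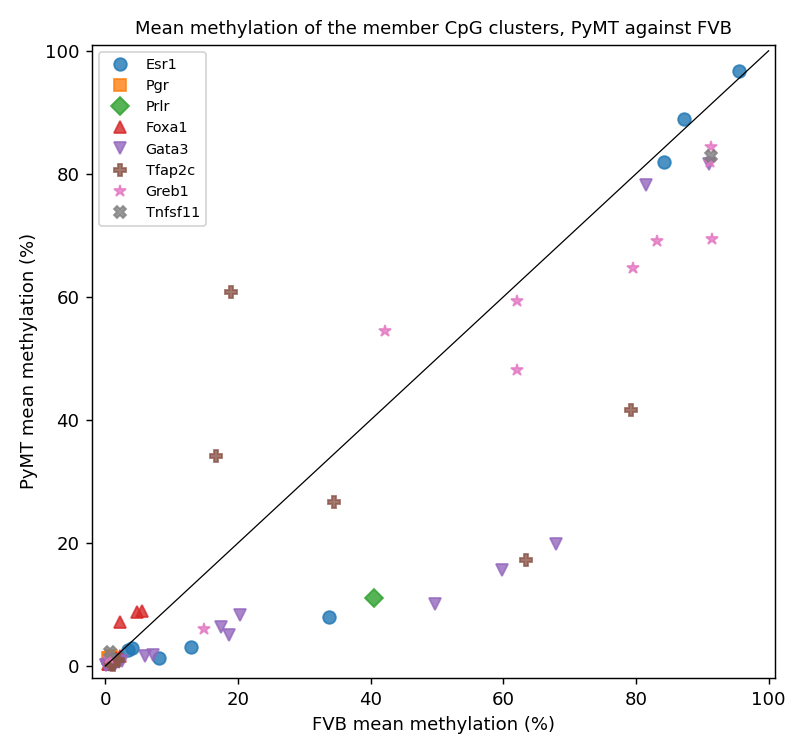
Mean methylation (%) of the 60 clusters in PyMT (vertical axis) against FVB (horizontal axis), each mean taken over the 4 weekly group means, 1 point per cluster with a symbol per gene and the line of equality drawn. Most clusters with intermediate or high FVB methylation lie below the line, the upstream Tfap2c cluster lies far above it at 41.8 points, and the 27 clusters under 5% in FVB differ by -1.7 to 5 points.

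At the whole-locus level the mean over all covered positions of a gene was lower in PyMT at 6 genes and higher at Pgr and Foxa1. The mean fell by 4.89 points at Esr1, by 26.9 points at Prlr, by 6.84 points at Gata3, by 6.9 points at Greb1 and by 2.61 points at Tnfsf11, and it was 0.79 points higher at Pgr and 1.85 points higher at Foxa1. For each of these 7 genes the two-sided exact permutation p, with labels permuted within week, was 2.5e-05, the smallest that the 40000 arrangements allow. The Tfap2c mean fell by 0.79 points (exact permutation p = 0.015), a mean over the upstream gain and the intronic losses described below. With reads pooled over positions, the differences at Tfap2c (exact permutation p = 0.129) and Tnfsf11 (exact permutation p = 0.0606) did not pass.

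Esr1 lost methylation in introns 1 and 2. The cluster before a curated start, that across exon 3 and intron 3 and those in the distal introns did not pass the limma test. The cluster at chr10:4621380-4621466 in intron 1 (5 positions, 9434 bp past the nearest curated TSS) was at 20.5%, 28.8% and 29.8% in FVB at week 6, at 21%, 45.5% and 39.3% at week 8, at 33.8%, 36.7% and 36.7% at week 10 and at 39.9%, 25.6% and 47% at week 12. In PyMT it was at 7.53% and 10.1% at hyperplasia, at 7.22%, 15.8% and 2% at adenoma/MIN, at 5.44%, 8.62% and 6.47% at early carcinoma and at 2.78% and 13.5% at late carcinoma. Every PyMT sample lay below every FVB sample, and the difference was -25.7 ± 3.06 points (SE, limma adjusted p = 2.4e-06). The neighboring cluster at chr10:4621215-4621250 differed by -9.86 ± 2.44 points (limma adjusted p = 0.0027), and a cluster in intron 2 at chr10:4712157-4712173 by -6.88 ± 1.77 points (limma adjusted p = 0.0036), both with overlap between strains.

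The Esr1 cluster with the most promoter positions, chr10:4709921-4710085, 155 bp before a curated TSS, had an FVB median of 3.81% and a PyMT median of 2.5% and did not pass (-1.16 ± 0.67 points, limma adjusted p = 0.18). By edgeR on its read counts the same cluster was called lower (-0.62 on the log2 scale, edgeR adjusted p = 0.0493). The cluster across exon 3 and intron 3, chr10:4712798-4712891 (18 positions), did not pass (limma adjusted p = 0.29). The 3 clusters of the distal introns 6 and 8 had FVB medians of 85.8% to 95.9% and did not pass either. They cover little of the distal body, and partly covered positions there are given among the closing observations. Over all 12 promoter positions, those within 2 kb of a curated TSS, Esr1 differed by -0.06 ± 0.9 points (limma adjusted p = 0.973). Its gene body mean fell by 6.05 ± 0.54 points, from an FVB median of 43.3% to a PyMT median of 37.2%, without overlap.

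Pgr was nearly unmethylated in both strains at its covered positions. Of these 83 positions, 81 lay in 3 clusters of exon 1, and 70 were promoter positions. The Pgr values, its locus mean included, thus describe the start of the gene and not the rest of its body. Its largest cluster, chr9:8900663-8901523 in the coding part of exon 1 (52 positions), ranged from 0.5% to 1.29% in FVB (median 0.74%) and from 0.79% to 2.87% in PyMT (median 1.55%). The ranges overlapped, and the difference was 0.84 ± 0.14 points (limma adjusted p = 8.8e-05). The next cluster, chr9:8901782-8901914 in the same exon, differed by 0.66 ± 0.18 points (limma adjusted p = 0.0057).

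Prlr had 4 covered positions, 3 of them in 1 cluster at chr15:10178750-10178797 in intron 1, 1536 bp past the start of a curated transcript. In FVB this cluster was at 41.5%, 46.5% and 37.6% at week 6, at 29%, 47.8% and 33.3% at week 8, at 40.8%, 43.1% and 37.7% at week 10 and at 40.2%, 36.1% and 52.6% at week 12. In PyMT it was at 7.96% and 15.2% at hyperplasia, at 5.93%, 23.7% and 11.5% at adenoma/MIN, at 11%, 4.3% and 9.99% at early carcinoma and at 10.9% and 9.57% at late carcinoma. The strains did not overlap, and the difference of -29.5 ± 2.79 points (limma adjusted p = 1.7e-07) was already -30.3 points at hyperplasia. Across the promoters of all genes, each centered on its FVB mean over the 22 samples, the profiles nearest to Prlr were those of Cldn4 (root mean square distance 5.43 points), Grin1 (5.64 points) and 6030440G07Rik (5.77 points).

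The Foxa1 promoter was near 0% in both strains, and the gene body gained methylation. The largest promoter cluster, chr12:57545619-57546055 across exon 1 and intron 1 (67 positions), had medians of 0.3% in FVB and 0.32% in PyMT and did not pass (-0.05 ± 0.07 points, limma adjusted p = 0.65). In the coding part of exon 2, the cluster at chr12:57542358-57542729 (39 positions) ranged from 1.55% to 3.25% in FVB (median 2.01%) and from 3.95% to 11.2% in PyMT (median 6.54%). The strains did not overlap there, and the difference was 5 ± 0.43 points (limma adjusted p = 6e-08). The adjacent cluster at chr12:57543103-57543626 was higher by 3.96 ± 0.26 points (limma adjusted p = 3.4e-09), with overlap at hyperplasia. The intron 1 cluster at chr12:57543739-57543828 was higher by 3.39 ± 1.04 points (limma adjusted p = 0.012), a call lost on the logit scale (limma adjusted p = 0.0942). Part of the Foxa1 locus overlaps Ttc6, which runs in the other direction.

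Gata3 had the most clusters, and 13 of its 19 lost methylation and 0 gained, where 31.6% of all clusters were lower and 16.6% higher. At Greb1 8 of 10 clusters were lower and at Tfap2c 7 of 10. These counts include small losses near the floor. Lower clusters with an FVB mean under 5% differed by only -0.51 to -0.87 points at Tfap2c and -0.96 to -1.7 points at Gata3. At the border of exon 5 and intron 5, chr2:9863072-9863135 (4 positions) was at 57.3%, 55.5% and 75.1% in FVB at week 6, at 52%, 64.6% and 69.6% at week 8, at 77.2%, 76.8% and 73.8% at week 10 and at 69.6%, 76.7% and 67.4% at week 12. In PyMT it was at 12.7% and 13.7% at hyperplasia, at 28.9%, 21.3% and 21.8% at adenoma/MIN, at 16.2%, 16% and 14.4% at early carcinoma and at 14.2% and 38.4% at late carcinoma. The highest PyMT sample stayed below the lowest FVB sample, and the difference was -48.2 ± 3.22 points (limma adjusted p = 3.6e-09). In coding exon 4, chr2:9868789-9868845 had medians of 58.1% in FVB and 16% in PyMT and differed by -44.2 ± 2.65 points (limma adjusted p = 1.1e-09). In intron 2, 1908 bp past the curated TSS, chr2:9876605-9876779 had medians of 48.4% in FVB and 10.4% in PyMT and differed by -39.5 ± 2.72 points (limma adjusted p = 4.9e-09). None of these 3 clusters overlapped between the strains.

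At the start of Gata3 methylation was near 0%. The cluster with the most promoter positions, chr2:9878799-9878976 upstream of the TSS (19 positions), had medians of 0.09% in FVB and 0.12% in PyMT and did not pass (limma adjusted p = 0.96). Because the promoter window also held the intron 2 clusters, the Gata3 promoter mean fell by 8.81 ± 0.58 points, from an FVB median of 11.5% to a PyMT median of 2.89%. Part of the positions upstream of the curated TSS lie within a longer model transcript, and part of them overlap the noncoding genes 4930412O13Rik and 9230102O04Rik.

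Tfap2c moved in both directions within 1 locus. Upstream of the curated TSS by 3798 bp, next to the start of a model transcript, chr2:172545748-172545842 (4 positions) was at 23.1%, 22.1% and 11.8% in FVB at week 6, at 22.4%, 19.5% and 18.6% at week 8, at 16.6%, 13.4% and 25.8% at week 10 and at 17.6%, 26.6% and 9.69% at week 12. In PyMT it was at 48.5% and 46.5% at hyperplasia, at 62.7%, 57.7% and 66.7% at adenoma/MIN, at 81.2%, 68% and 50.3% at early carcinoma and at 79% and 54.5% at late carcinoma. The strains did not overlap, and the gain was 41.8 ± 3.8 points (limma adjusted p = 1.1e-07).

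In Tfap2c intron 5 the direction was the opposite. The cluster at chr2:172554257-172554299 (3 positions) ranged from 41.7% to 81.3% in FVB (median 66.1%) and from 7.79% to 25.5% in PyMT (median 17.2%), a difference of -46.3 ± 4.23 points (limma adjusted p = 1.2e-07). The cluster at chr2:172555788-172555895 ranged from 66.1% to 89.4% in FVB and from 30.6% to 49.3% in PyMT, a difference of -37.8 ± 2.35 points (limma adjusted p = 1.8e-09). Neither overlapped between the strains. The largest promoter cluster, chr2:172551132-172551833 (58 positions), was at a median of 1.65% in FVB and 0.89% in PyMT (-0.76 ± 0.14 points, limma adjusted p = 0.00024). The gene body mean of Tfap2c, whose 26 positions include the upstream cluster that gained 41.8 points and the intronic ones that lost methylation, did not pass (-1.26 ± 1.07 points, limma adjusted p = 0.313).

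**Figure D2:**
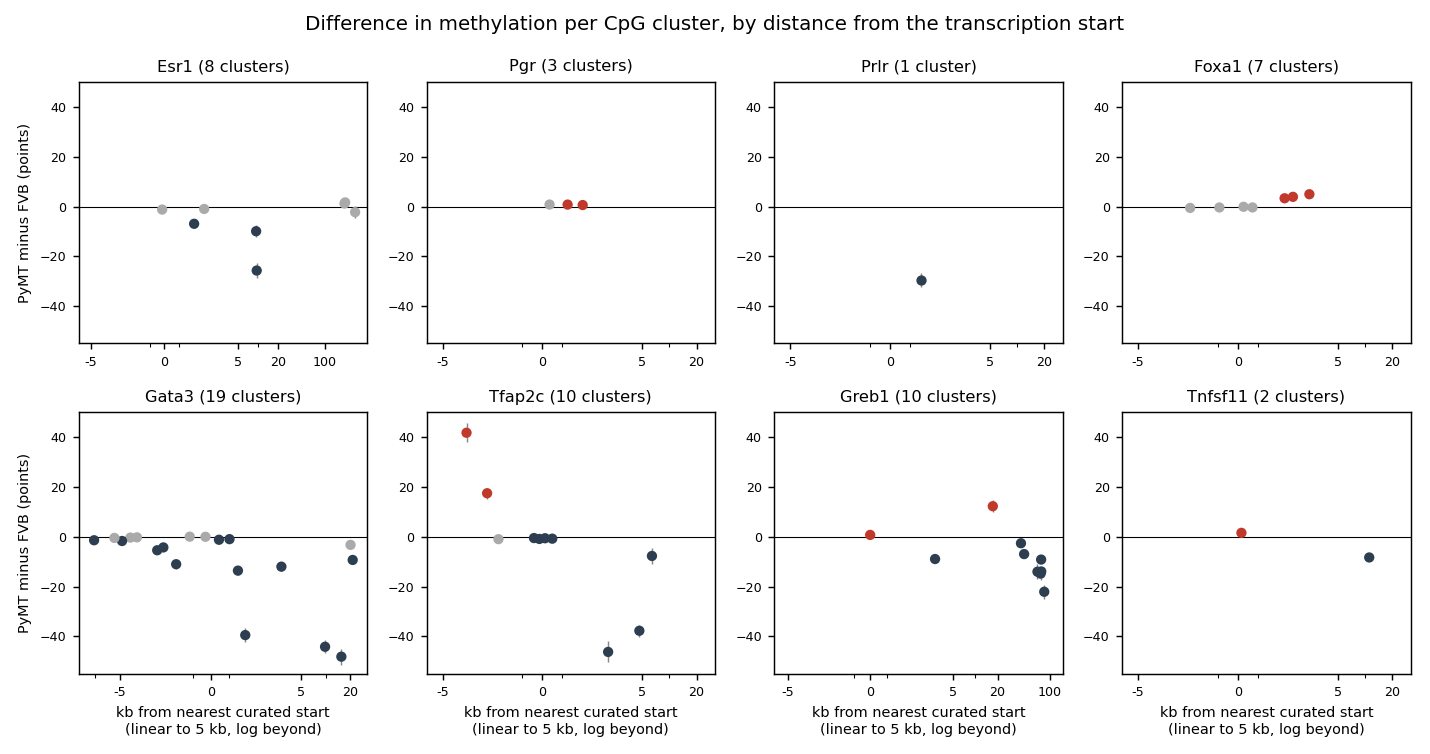
Difference in mean methylation (PyMT minus FVB, percentage points, vertical axis) of each cluster against its distance from the nearest curated TSS (kb, linear to 5 kb and logarithmic beyond), 1 panel per gene, with bars of 1 SE from limma. Red points were called higher, dark points lower and grey points neither, and the large differences lie away from the starts, such as -48.2 points in Gata3 and 41.8 points upstream of Tfap2c.

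Greb1 lost methylation along its body, with 8 clusters lower and 2 higher. In coding exon 35, chr12:16672456-16672514 (8 positions) ranged from 85.3% to 95.8% in FVB (median 91.5%) and from 54.6% to 82% in PyMT (median 68.6%). The strains did not overlap, and the difference was -22.1 ± 2.87 points (limma adjusted p = 6e-06). In exon 30, chr12:16681398-16681445 differed by -14.8 ± 2.71 points (limma adjusted p = 0.0002), and at the border of exon 27 and intron 27, chr12:16688468-16688618 differed by -14.1 ± 2.92 points (limma adjusted p = 0.00067), both with overlap. The larger of the 2 gains, chosen for mention after its values were seen, was in exon 4 at chr12:16739945-16740050 (5 positions), with medians of 42.8% in FVB and 53.8% in PyMT and with overlap (12.3 ± 2.53 points, limma adjusted p = 0.0006). The cluster at the Greb1 TSS, chr12:16800777-16800998 (20 positions), was at a median of 0.48% in FVB and 1.17% in PyMT (0.75 ± 0.18 points, limma adjusted p = 0.0017).

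Tnfsf11 showed a small gain at its start and a loss in its body. The promoter cluster at chr14:78307779-78307971 in exon 1 (37 positions) ranged from 0.27% to 2.08% in FVB (median 0.46%) and from 0.81% to 3.77% in PyMT (median 2.3%), and the ranges overlapped (1.58 ± 0.23 points, limma adjusted p = 1.8e-05). In intron 2, chr14:78296842-78296998 (11 positions) ranged from 88.8% to 94.2% in FVB (median 91%) and from 78.4% to 89.8% in PyMT (median 82.3%). The difference was -8.32 ± 0.87 points (limma adjusted p = 5.3e-07), and the highest PyMT sample exceeded the lowest FVB sample.

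**Figure D3:**
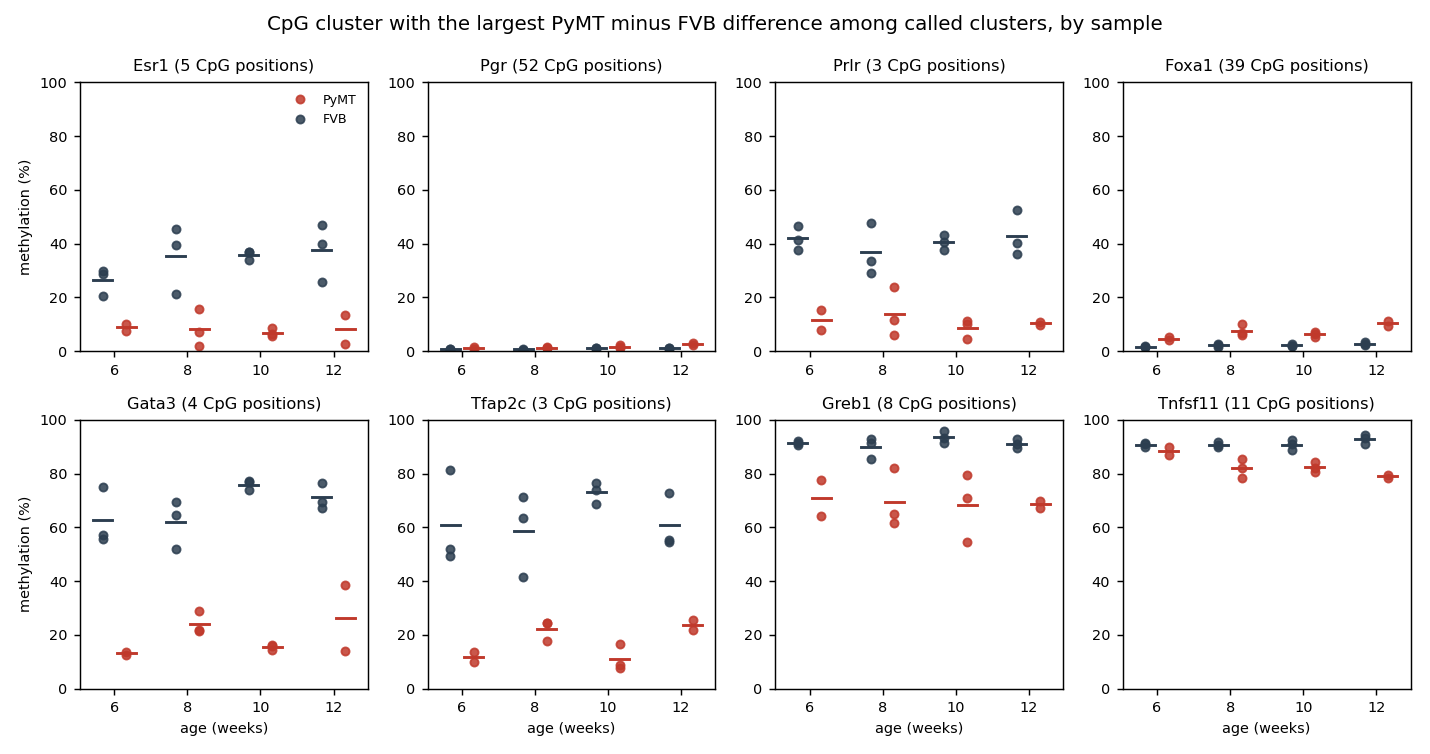
Methylation (%, vertical axis) of the called cluster with the largest difference at each gene, by age in weeks, with 1 point per sample (FVB dark, PyMT red) and a bar at each group mean. The strains are apart at every week for Esr1, Prlr, Gata3 and the Tfap2c intron 5 cluster, whereas Pgr stays at or below 2.87% in all samples.

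Taken over whole promoters, 3 of the 8 genes were higher (Pgr, Greb1 and Tnfsf11) and 3 lower (Prlr, Gata3 and Tfap2c), where 17.0% of 16407 promoters were higher and 17.0% lower. Of the 7 gene bodies with at least 3 positions, 1 was higher (Foxa1, by 4.47 ± 0.28 points) and 4 were lower (Esr1, Gata3, Greb1 and Tnfsf11), where 19.7% of 11696 bodies were higher and 46.3% lower. The Tnfsf11 body differed by -10 ± 0.8 points (limma adjusted p = 8.7e-09) and the Greb1 body by -9.45 ± 0.85 points (limma adjusted p = 3.7e-08).

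The second question was at which stage single CpGs differed from age-matched controls. A differentially methylated CpG (DMC) had a q-value under 0.01 in a logistic model of its read counts and a difference of at least 10 points. Of the 830 positions, 11 were higher in PyMT (hyper-DMCs) at hyperplasia, 20 at adenoma/MIN, 21 at early carcinoma and 35 at late carcinoma, where 2.6%, 3.19%, 4.38% and 4.43% of all positions were. In the other direction 86, 91, 105 and 108 were hypo-DMCs, where 5.99%, 7.08%, 8.39% and 8.51% of all positions were. The share of the 830 positions called hypo-DMCs thus ran from 10.4% at hyperplasia to 13% at late carcinoma. This test takes reads as its units and leaves out the spread between mice. Limma on single positions was called at a looser cutoff, an adjusted p under 0.05 with at least 10 points. It gave 0, 10, 14 and 16 hyper-DMCs and 18, 35, 60 and 53 hypo-DMCs at the 4 stages. Of all positions, limma called 0.344%, 0.897%, 1.68% and 1.81% hyper-DMCs and 1.29%, 2.61%, 4.0% and 3.91% hypo-DMCs. Without hyperplasia replicate 1 the hypo-DMCs of hyperplasia numbered 57.

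**Figure D4:**
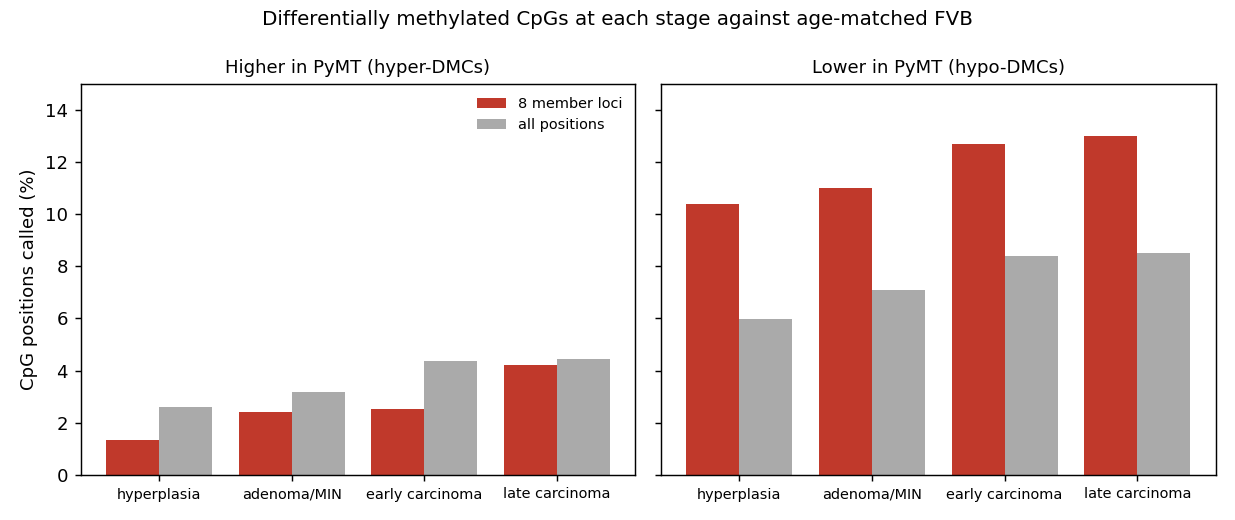
Percent of CpG positions called as DMCs (vertical axis) at each stage, for the 830 positions of the 8 loci (red bars) and all 1140639 positions (grey bars), with hyper-DMCs on the left and hypo-DMCs on the right. At late carcinoma 4.22% of the 830 positions were hyper-DMCs and 13% hypo-DMCs.

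Of the 830 positions, 186 were DMCs at 1 stage or more (20.2% of all positions), and 0 changed direction between stages (0.158% of all positions). At all 4 stages, 61 were hypo-DMCs and 6 were hyper-DMCs, where 3.26% and 1.05% of all positions were. The 61 lay in Gata3 (31), Greb1 (11), Tfap2c (8), Esr1 (7), Prlr (3) and Tnfsf11 (1). Tfap2c held each of the 6. Foxa1 had 2, 7, 7 and 22 hyper-DMCs at the successive stages, all in the gene body, and no hypo-DMC. Pgr had 1 DMC, a hyper-DMC at late carcinoma.

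The third question was what changed between the premalignant weeks 6 and 8 and the malignant weeks 10 and 12. In PyMT, 2 of the 60 clusters were higher at the later weeks (2.02% of all clusters) and 0 were lower (1.23% of all clusters), and 2 were lower at an unadjusted p under 0.05 (7.48% of all clusters). In FVB, limma called 0 higher (0% of all clusters) and 0 lower (0% of all clusters). At an unadjusted p under 0.05, 7 clusters were higher in FVB and 0 lower, where 4.53% and 2.07% of all clusters were, and limma on the logit scale also called 0. The change in PyMT exceeded that in FVB at 1 cluster (0.577% of all clusters) and was below it at 0 (0.271% of all clusters), with 5 below it at an unadjusted p under 0.05 (6.92% of all clusters).

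The clusters that rose in PyMT were in Foxa1 and Pgr. The Foxa1 cluster at chr12:57543103-57543626 was at 4.2% and 5.05% at hyperplasia, at 8.37%, 8.77% and 8.64% at adenoma/MIN, at 10.8%, 9.8% and 8.96% at early carcinoma and at 11.5% and 12.6% at late carcinoma. In FVB it was at 4.42%, 3.81% and 5.39% at week 6, at 4.29%, 4.6% and 4.88% at week 8, at 5.48%, 5.09% and 5.25% at week 10 and at 4.16%, 4.98% and 5.38% at week 12. Hyperplasia samples lay within the FVB range, and all later PyMT samples lay above it. The rise in PyMT was 4.32 ± 0.39 points (limma adjusted p = 1.6e-05) and exceeded that in FVB by 3.83 ± 0.53 points (limma adjusted p = 0.0022). The Pgr exon 1 cluster rose by 0.88 ± 0.21 points (limma adjusted p = 0.03) and its difference from the change in FVB, 0.53 ± 0.28 points, did not pass (limma adjusted p = 0.484). On the logit scale neither cluster passed. The count of rising clusters was 1 without hyperplasia replicate 1, adenoma/MIN replicate 1, early carcinoma replicate 1 or late carcinoma replicate 3, and 4 without early carcinoma replicate 3.

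**Figure D5:**
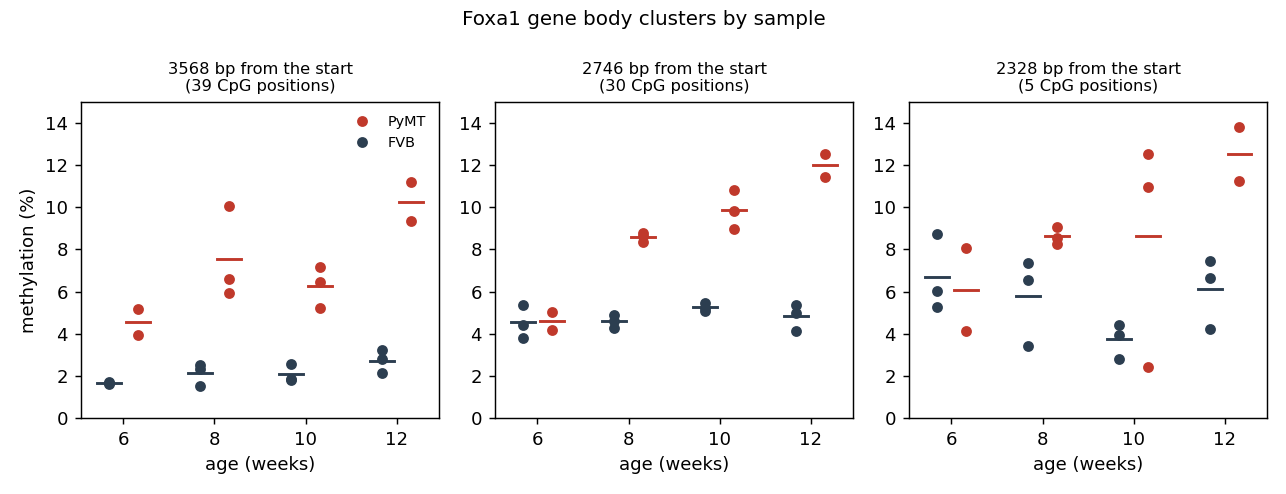
Methylation (%, vertical axis) of the 3 Foxa1 gene body clusters by age in weeks, with 1 point per sample (FVB dark, PyMT red) and a bar at each group mean, each panel named by its distance from the curated TSS. In the middle panel the PyMT group means rise from 4.62% to 12% between weeks 6 and 12 while FVB stays between 3.81% and 5.48%.

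Over whole promoters, Pgr and Tnfsf11 rose in PyMT between these weeks (5.67% of all promoters rose and 0.366% fell), by 0.67 ± 0.16 and 1.2 ± 0.34 points. Neither rise passed as a difference from the change in FVB (Pgr 0.35 points, limma adjusted p = 0.617, and Tnfsf11 0.80 points, limma adjusted p = 0.552), and on the logit scale 0 promoters of the 8 genes rose. Leaving out 1 sample at a time left 0 or 1 of these promoters called in 17 of 22 cases. No promoter of the 8 genes fell by limma, 0 at an unadjusted p under 0.05 (2.73% of all promoters), and 0 on the logit scale. Among gene bodies, Foxa1 rose by 3.15 ± 0.41 points (1.86% of all bodies rose) and Tnfsf11 fell by 4.72 ± 1.19 points (2.21% of all bodies fell), the latter lost on the logit scale and in 7 of 22 cases with 1 sample left out, each a PyMT sample. The change in PyMT exceeded that in FVB at the Foxa1 body, by 2.77 ± 0.55 points (limma adjusted p = 0.0243, 0.607% of all bodies), and was below it at 0 bodies (0.727% of all bodies), with 2 below it at an unadjusted p under 0.05 (10.3% of all bodies) and 0 on the logit scale. Without late carcinoma replicate 1 the Foxa1 body difference was 2.59 points (limma adjusted p = 0.0645), without hyperplasia replicate 2 it was 2.76 points (limma adjusted p = 0.0551), and without FVB week 12 replicate 1 it was 2.67 points (limma adjusted p = 0.0531).

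Of 30 other genes of the estrogen, progesterone and prolactin pathways, 28 had a promoter value and 24 a body value. Promoters were higher at 3, lower at 5 and not called at 20, where 17.0% of all promoters were higher and 17.0% lower. Their median difference was -0.000817 points beside -0.00815 points over all promoters. The largest promoter differences were at Esr2, the second estrogen receptor (-3.78 ± 0.47 points), Stat5b, which relays prolactin signals (1.98 ± 0.27 points), and Med1, a coactivator of nuclear receptors (-0.85 ± 0.13 points). Bodies were higher at 8, lower at 6 and not called at 10, where 19.7% of all bodies were higher and 46.3% lower. The median of the listed bodies was 0.04 points beside -1.67 points over all bodies.

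The RANK system around Tnfsf11 held the largest body differences of that list. The body of Tnfrsf11b, the decoy receptor osteoprotegerin, ranged from 42.2% to 88.1% in FVB and from 14.7% to 30.4% in PyMT (-46.6 ± 3.15 points, limma adjusted p = 1.3e-09). The body of Tnfrsf11a, the receptor RANK, ranged from 51.9% to 62.6% in FVB and from 74.9% to 83.2% in PyMT (25.2 ± 1.23 points, limma adjusted p = 4.8e-11). Neither overlapped between the strains. Tbx3, a transcription factor of the mammary lineage, differed by -16.3 ± 1.83 points (limma adjusted p = 5.2e-07).

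Markers of cell types moved with strain as well. Of 14 epithelial marker genes with a promoter value, 13 were lower in PyMT and 0 higher, where 17.0% of all promoters were lower and 17.0% higher. The mean promoter methylation of these 14 genes was 7.6% to 9.95% in PyMT samples and 15.5% to 21.5% in FVB samples, without overlap. Promoters of 5 adipocyte markers were higher at 1 and lower at 2 (33.7% to 40.1% in PyMT, 40.8% to 47% in FVB). Promoters of 4 leukocyte markers were higher at 2 and lower at 1 (48.4% to 60.4% in PyMT, 49.8% to 55.9% in FVB). Those of 7 endothelial markers were higher at 3 and lower at 3 (25.8% to 28.6% in PyMT, 19.8% to 23.9% in FVB). The adipocyte and the endothelial promoter means did not overlap between the strains either, while the leukocyte ones did. Of all gene bodies, 46.3% were lower in PyMT and 19.7% higher. Among marker gene bodies, those lower in PyMT were 7 of 9 epithelial ones (2 higher), 1 of 3 adipocyte ones (1 higher), 5 of 6 leukocyte ones (0 higher) and 6 of 8 endothelial ones (1 higher). Their mean was 61.1% to 66.1% in PyMT and 69.6% to 76.8% in FVB for the epithelial bodies, and 49.1% to 57.5% in PyMT and 59.8% to 63.9% in FVB for the leukocyte bodies, without overlap in either. The adipocyte bodies (52.7% to 58.1% in PyMT, 52.6% to 61.5% in FVB) and the endothelial bodies (60.1% to 63.9% in PyMT, 63.4% to 66.9% in FVB) overlapped. The part of the cell mix in the losses at Gata3, Esr1, Prlr and Tfap2c was not tested.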

How the data were processed

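Per the labels and the methods, reads were aligned with Bismark to mm10. The authors deposited, for each cytosine with at least 10 reads, its coverage as a count of reads, and the percent of these reads called methylated and unmethylated, without normalization and with strands separate. Methylated read counts were recovered as coverage times percent, rounded. The members and lists were chosen with earlier results of these data known.

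Positions covered in all 22 samples were used for means and counts. All 1148 positions of the 8 loci lay on a CpG of the reference. Clusters, promoters and gene bodies were averaged over at least 3 positions and fitted in limma 3.58.1 (R 4.3.3) on 8 strain-by-week groups without a replicate block. P-values were adjusted over all features. Replicates of a group differed beyond sampling noise, and p-values measure the spread between these samples. DMCs were called with the thresholds of the methods, a q-value under 0.01 and at least 10 points, by a logistic likelihood ratio test chosen here, at positions covered in every sample of the stage comparison, and were counted over positions covered in all 22 samples. Locus means were compared by exact permutation within week. Alternatives used logit values, edgeR 4.0.16, other gaps, coverage and window sizes, a replicate block and left-out samples. Scripts were tested on simulated data. Clusters named were, per gene, that with most promoter positions and up to 3 called with the largest difference. From the pathway list, the 3 largest called promoter and body differences were named.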

Additional observations from a re-analysis of the deposited data

Results flagged for a closer look

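The change between weeks 6 to 8 and weeks 10 to 12 differed between PyMT and FVB at the Foxa1 cluster in exon 2 and intron 1 (chr12:57543103-57543626), by 3.83 points, and over the Foxa1 gene body, by 2.77 points, each by limma's test of the difference itself. On the logit scale the adjusted p was 0.32 for the cluster and 0.0827 for the body.

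Of the 318 locus positions not covered in every sample, 201 were covered in at least 5 PyMT and 5 FVB samples and were outside the comparisons above. Among these, 1 was higher in PyMT and 7 were lower, by at least 10 points and with no overlap between the strains. The higher position was in Tfap2c (chr2:172546280, 73.5% in 6 PyMT and 27.7% in 10 FVB samples). The lower ones were in Esr1 (3), Gata3 (2) and Tfap2c (2). Those of Esr1 included chr10:4870215 (44.8% in 6 PyMT and 75.8% in 7 FVB samples). They also included chr10:4934661 (28.5% in 6 PyMT and 70.8% in 7 FVB samples). Both lie in the gene body, past the Esr1 clusters of introns 1 and 2. Of the 830 positions covered in every sample, 5 were higher and 32 lower by the same measure. Groups with fewer samples are apart more easily, as at chr10:4621465 in Esr1 with 6 PyMT and 5 FVB samples, so the 2 sets of counts are not directly comparable. No share over all positions is given for this measure, and these counts were not tested.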

How the results depend on the processing

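With a difference of at least 25 points, the hyper-DMCs at the 8 loci numbered 5, 6, 9 and 8 from hyperplasia to late carcinoma and the hypo-DMCs 36, 41, 49 and 53. With an overdispersion correction the hyper-DMCs numbered 6 at hyperplasia, 12 at adenoma/MIN and 18 at late carcinoma, and the hypo-DMCs 40 at hyperplasia and 41 at adenoma/MIN. With limma on single positions, at the looser adjusted p under 0.05, the hyper-DMCs numbered 0 at hyperplasia, 10 at adenoma/MIN and 16 at late carcinoma. The hypo-DMCs then numbered 18, 35, 60 and 53. Leaving out 1 sample gave 57 to 92 hypo-DMCs at hyperplasia. The other DMC counts stayed within 1.5 times. Shares over all positions are given above only for the main logistic test and for limma. The counts under the other settings therefore cannot be set against all positions.

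For PyMT against FVB, clusters of at least 5 positions gave 20 lower, with fewer clusters tested. With pooled reads the locus means differed by -0.55 points at Tfap2c and -2.95 points at Tnfsf11 and no longer passed. Leaving out 1 sample gave 1 to 2 gene bodies higher. Of values that had not passed, the Gata3 cluster upstream of the TSS was 0.0817 on the logit scale and 0.243 by edgeR (both log2) and -0.0245 to 0.019 points with a sample left out, the Tfap2c body was 0.11 (log2) on the logit scale, and the Esr1 promoter was -0.58 to 0.45 points with a sample left out.

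Between the premalignant and malignant weeks, the logit scale gave 0 rising clusters, 0 rising promoters and 0 falling bodies in PyMT, and 0 clusters and 0 bodies whose rise exceeded that in FVB. Gaps of at most 50 bp gave 2 clusters whose rise exceeded that in FVB. With 1 sample left out, rising clusters numbered 1 to 4, falling clusters 0 to 1, rising promoters 0 to 2 and falling bodies 0 to 1. The difference from FVB was then positive at 1 to 2 clusters and 0 to 1 bodies and negative at 0 to 1 clusters and 0 to 1 bodies. The cause was not tested. Where hyperplasia or late carcinoma was left with 1 sample, that sample was assumed to vary like the other groups.

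Replicate numbers did not pair the samples: deviations of same-numbered samples correlated at -0.0391 to 0.0285. With the number as a replicate block, 29 clusters were lower and 10 higher, and 3 promoters were higher and 3 lower. At hyperplasia 61 hypo-DMCs were called. The block left out FVB week 6 replicate 3 and FVB week 12 replicate 2, which had no PyMT sample of the same number. Its DMCs came from a Cochran-Mantel-Haenszel test in place of the logistic one. These counts therefore do not show the effect of the block alone. The Esr1 promoter difference was 0.55 points with the block and did not pass.

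Single positions rested on as few as 10 reads in a sample, which limits the precision of DMC calls.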
